A study of Mus musculus with 6 samples.

Results

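The 10 genes described here encode the 5 subunits of the transcription factor NF-kB (Nfkb1, Nfkb2, Rel, Rela and Relb), 4 IkB proteins (Nfkbia, Nfkbib, Nfkbie and Nfkbid) and the NF-kB inducing kinase NIK (Map3k14). They were chosen by name from the 18288 gene symbols of the deposited table, and each symbol had 1 entry. The samples were mouse CD8+ T cells, the cytotoxic class of T lymphocytes, that were activated in culture and profiled by RNA sequencing at day 2. Of the 6 libraries, 3 were labelled Nae1T-KO and 3 Nae1WT, each from mice of the named genotype. Nae1 encodes the regulatory subunit of the enzyme that activates the ubiquitin-like protein NEDD8. The age of the mice, the driver and cell type of the deletion, the activating stimulus and whether each of the replicates, which the labels call biological, was a separate mouse are not stated in the sources used here. Adjusted p-values judge the difference between the groups against the spread between these libraries.

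In resting T cells, IkB proteins hold NF-kB dimers in the cytoplasm. Signals from the T cell receptor and from receptors of the TNF family activate the IKK kinases, which phosphorylate IkB, and a cullin-based ubiquitin ligase of the SCF class then marks IkB for the proteasome. The same class of ligase acts on the precursors p105 and p100, the products of Nfkb1 and Nfkb2, and cullin ligases are activated by attachment of NEDD8. NIK drives the slower, alternative arm, in which p100 is processed to p52, and in unstimulated cells NIK protein is kept low by TRAF and cIAP proteins. The RNA measured here does not report on IkB degradation, precursor processing or NIK protein.

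The label was checked against Nae1 itself. Normalized counts of Nae1 were 390.3, 338 and 367 in Nae1T-KO replicates 1, 2 and 3, against 1601, 1806 and 1882 in the Nae1WT replicates, so that all 3 libraries labelled Nae1T-KO were below all 3 others (log2 fold change -2.27, limma adjusted p = 5.03e-07). Uba3, which encodes the partner subunit of the enzyme, had 2609.7 ± 216 (SD, n = 3) in Nae1T-KO and 2565 ± 122 in Nae1WT (0.02, adjusted p = 0.884). Libraries held between 15628252 and 25444653 recovered reads, and 13819 genes reached a normalized count of 10 in at least 3 libraries and were tested. Markers of CD8 T cells were abundant in every library, with summed normalized counts of 34999 to 37185 in Nae1T-KO and 40546 to 43568 in Nae1WT over the 8 markers analysed of 9 listed. 2 of these 8 were called lower in Nae1T-KO, and 1 of the 4 tested myeloid and dendritic cell markers was called higher. Over all tested genes 6.18% were called lower and 6.53% higher. No tested marker of B cells, erythroid cells, CD4 T cells, or gamma-delta T and NK cells was called. Summed myeloid and dendritic cell markers (8 genes) reached 151 to 241 in Nae1T-KO and 71.1 to 101 in Nae1WT, and summed CD4 T cell markers (7 genes) 582 to 929 and 358 to 511. Of the CD4 T cell markers only Il13 and Cd40lg were higher in every Nae1T-KO library, and the others, Cd4 among them, overlapped. B cell markers (10 genes) summed to 218, 627 and 292 in Nae1T-KO and to 247 to 370.0 in Nae1WT, erythroid markers (7 genes) to 368, 2048 and 203 against 145 to 643, and gamma-delta T and NK cell markers (3 genes) to 14.1 to 34.3 against 22.0 to 28.2. No marker of any list was at 0 in all 6 libraries. Nae1T-KO replicate 2 thus had the highest B cell and erythroid sums of all libraries. By Xist and Y-linked genes, Nae1T-KO replicates 1 and 2 and Nae1WT replicate 3 came from females and the other libraries from males, which the labels do not state. In bulk RNA, fewer cells of a type and less RNA per cell cannot be told apart.

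All 10 genes passed the filter. 4 were higher in Nae1T-KO (Nfkb1, Rela, Nfkbid and Map3k14), 2 were lower (Nfkbia and Nfkbie) and 4 did not pass an adjusted p of 0.05 (Nfkb2, Rel, Relb and Nfkbib). Among all tested genes 6.53% were called higher and 6.18% lower, with a median log2 fold change of -0.01, while the median of the 10 genes was 0.23. Without any 1 library other than Nae1WT replicate 3, and under total-count scaling, 1 gene in place of 2 was called lower. The groups did not overlap in 7 of the 10 genes, 5 higher and 2 lower, where 16.7% of all tested genes were higher and 17.0% lower without overlap. The split over all genes was 903 higher and 854 lower with the deposited scaling, and 1176 higher and 622 lower when libraries were scaled by their total count. That scaling moves the median of all genes from -0.0061 to 0.041.

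**Figure D1:**
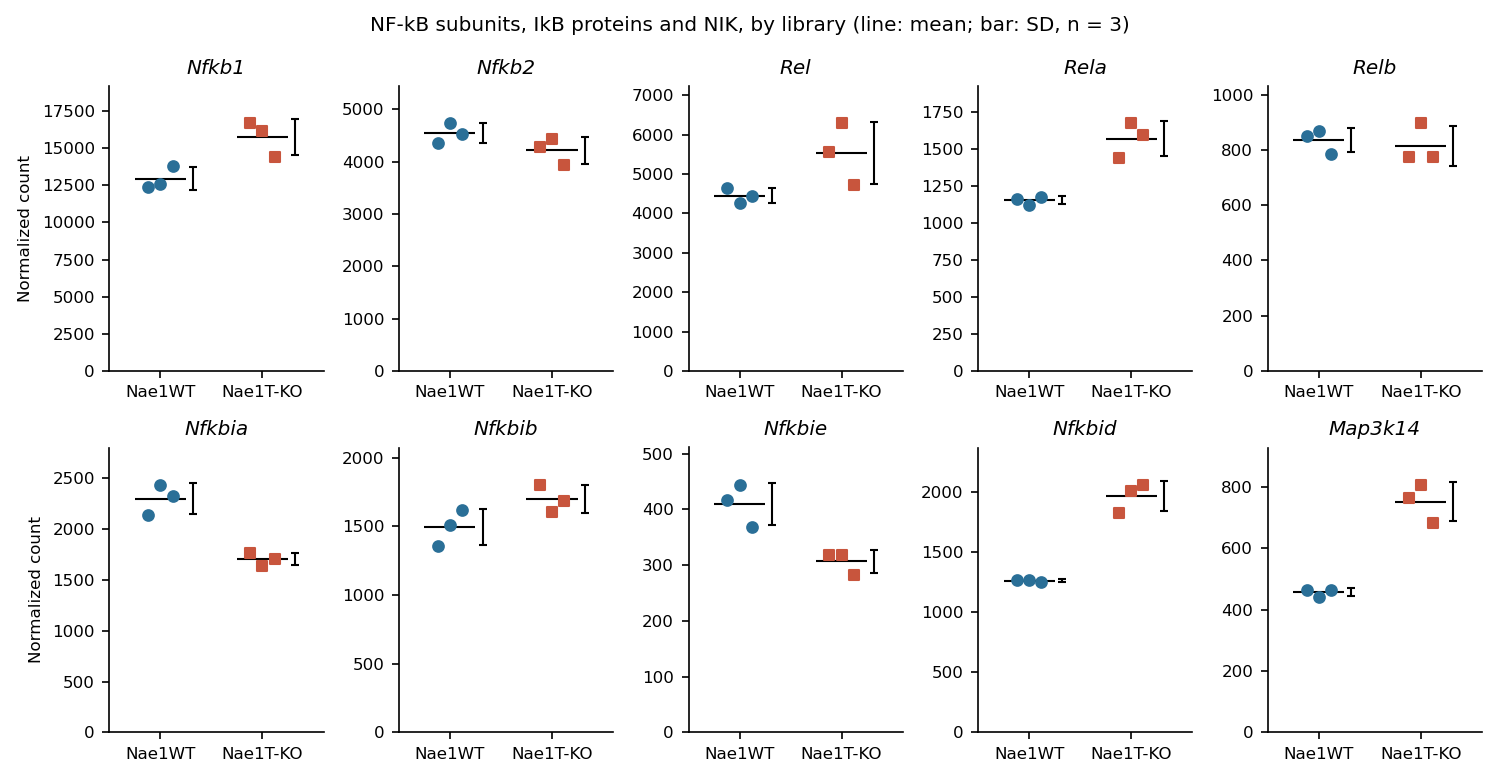
Normalized count (vertical axes, starting at 0, one scale per gene) of each of the 10 genes in the 3 Nae1WT libraries (circles) and the 3 Nae1T-KO libraries (squares), in the order of replicates 1 to 3 from left to right, with the group mean (line) and SD (bar). The groups are fully separated for Nfkb1, Rel, Rela, Nfkbia, Nfkbie, Nfkbid and Map3k14, and overlap for Nfkb2, Relb and Nfkbib.

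Among the subunits, those of the classical arm were higher in Nae1T-KO or stood higher without passing the test, and those of the alternative arm did not pass in either direction. Rela (chr19:5637442-5648134, plus strand, gene spans from RefSeq on GRCm38, strands from GENCODE) encodes p65, the main activating subunit. Its normalized counts were 1442, 1676 and 1594 in Nae1T-KO and 1163, 1124 and 1176 for Nae1WT. All 3 Nae1T-KO libraries were above all 3 Nae1WT libraries, which lay close together. Rela rose 1.36-fold, a log2 fold change of 0.44 ± 0.08 (SE, 95% interval 0.27 to 0.61, adjusted p = 0.00517).

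Nfkb1 (chr3:135584655-135691969, minus strand) encodes p105, which acts as an IkB itself and is the precursor of the DNA-binding subunit p50. Its counts were 16683, 16182 and 14381 in Nae1T-KO and 12398, 12594 and 13809 in the Nae1WT libraries. The groups did not overlap, although the lowest Nae1T-KO library, replicate 3, and the highest Nae1WT library, replicate 3, were close. Nfkb1 rose 1.22-fold (log2 fold change 0.28 ± 0.08, SE, 95% interval 0.11 to 0.46, adjusted p = 0.0411). The call ended without any 1 library other than Nae1T-KO replicate 3 (adjusted p = 0.0662 to 0.141) and when sex was added to the fit (0.23, adjusted p = 0.0600).

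Rel (chr11:23736847-23770969, minus strand) encodes c-Rel, a subunit that lymphocytes make after activation. Its counts were 5559.7, 6290.4 and 4718 in Nae1T-KO and 4633, 4266 and 4450.1 for Nae1WT. Every Nae1T-KO library was above every Nae1WT library, but the Nae1T-KO libraries were spread widely (SD 787, against 183 in Nae1WT). The log2 fold change of 0.30 ± 0.10 (SE, 95% interval 0.09 to 0.52) did not pass (limma adjusted p = 0.0672). Rel was called without Nae1T-KO replicate 3 (0.41, adjusted p = 0.00821) and by DESeq2 (0.31, adjusted p = 0.0233). Without Nae1T-KO replicate 2, the library with the highest B cell and erythroid marker sums and the highest Rel, the difference was 0.20 (adjusted p = 0.184). The part of those markers in the Rel level was not tested.

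Nfkb2 (chr19:46300994-46312400, plus strand) encodes p100, the precursor that NIK signalling turns into p52. Its counts were 4283.5, 4437 and 3938 in Nae1T-KO and 4366, 4739 and 4536 in the Nae1WT libraries. The ranges overlapped, with Nae1T-KO replicate 3 the lowest library. The difference of -0.11 ± 0.07 (SE, 95% interval -0.26 to 0.05, adjusted p = 0.333) did not pass. Nfkb2 shares 299 exon bases with Psd on the opposite strand and 531 with a noncoding transcript, and whether the counting used strand is not stated in the sources used here.

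Relb (chr7:19606217-19629438, minus strand) encodes the partner of p52 in the alternative arm. Its counts were 773, 897 and 773 in Nae1T-KO and 852, 869.7 and 787 for Nae1WT. The highest library, Nae1T-KO replicate 2, and the lowest, Nae1T-KO replicate 1, belonged to the same group. The difference was -0.04 ± 0.09 (SE, 95% interval -0.23 to 0.15, adjusted p = 0.806), and it was 0.01 under total-count scaling. These intervals do not show that Nfkb2 and Relb were equal in the groups.

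**Figure D2:**
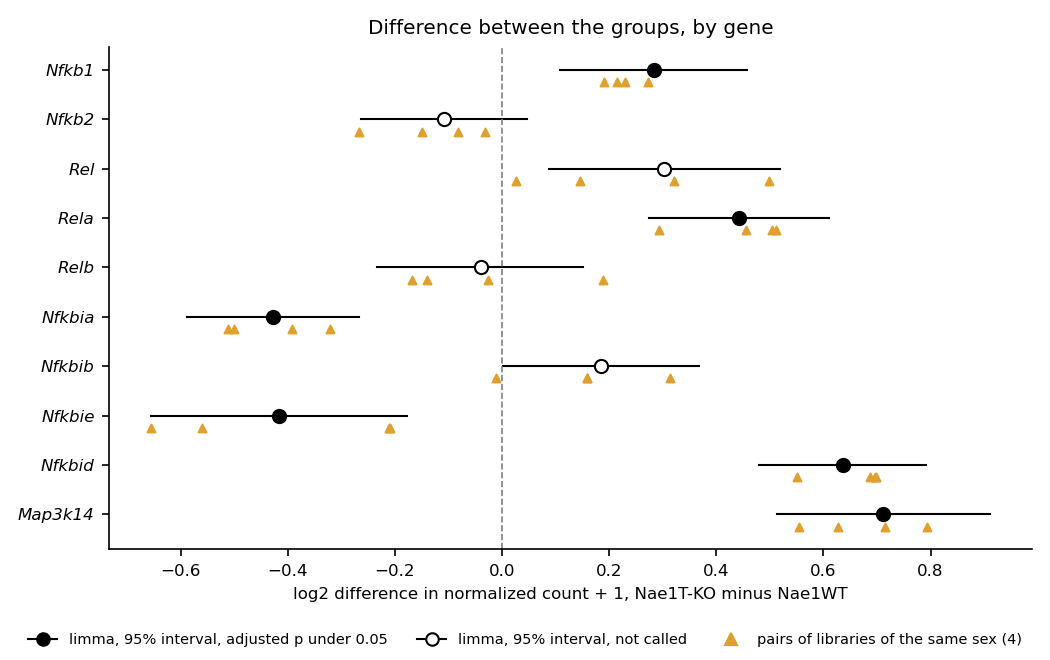
Log2 difference of normalized count + 1 between Nae1T-KO and Nae1WT (horizontal axis) for the 10 genes, from the limma fit with its 95% interval (circles, filled where the adjusted p was under 0.05), and for the 4 pairs of libraries of the same sex (triangles). The pairs span 0.03 to 0.50 for Rel and 0.55 to 0.70 for Nfkbid, and those of Relb and Nfkbib lie on both sides of 0. Where the groups do not overlap, the sign of a pair is fixed.

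The 4 IkB genes moved in different directions. Nfkbia and Nfkbie, which encode the cytoplasmic inhibitors IkB-alpha and IkB-epsilon, fell, Nfkbid, which encodes the nuclear protein IkBNS, rose, and Nfkbib, which encodes IkB-beta, did not pass. Nfkbia (chr12:55489409-55492647, minus strand) is the best known feedback gene of the pathway, induced by NF-kB and coding for its inhibitor. Its counts were 1767, 1641 and 1709.5 in Nae1T-KO and 2135, 2437 and 2321 in the Nae1WT libraries. The Nae1T-KO libraries lay close together and all below the Nae1WT libraries. Nfkbia fell by 0.43 on the log2 scale (SE 0.07, 95% interval -0.59 to -0.27, adjusted p = 0.00489), which makes the Nae1WT mean 1.35 times that of Nae1T-KO.

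Nfkbie (chr17:45555700-45563169, plus strand) had the smallest counts of the 10 genes, 319, 319 and 282 in Nae1T-KO and 416, 444 and 369 for Nae1WT. The groups did not overlap. Nfkbie fell by 0.42 on the log2 scale (SE 0.11, 95% interval -0.66 to -0.18, adjusted p = 0.0308). The call was lost without any 1 library other than Nae1WT replicate 3 (adjusted p = 0.0527 to 0.126), under total-count scaling (-0.37, adjusted p = 0.0525) and when sex was added to the fit (-0.41, adjusted p = 0.0537). The sign was negative in all 19 alternatives.

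Nfkbid (chr7:30421731-30428749, plus strand) encodes an IkB protein that stays in the nucleus and acts on NF-kB at promoters, in contrast with the cytoplasmic inhibitors. Its counts were 1828, 2008 and 2059.9 in Nae1T-KO and 1269.6, 1271 and 1248 in the Nae1WT libraries. The Nae1WT libraries were nearly equal (SD 13.0) and all Nae1T-KO libraries were far above them. Nfkbid rose 1.55-fold (log2 fold change 0.64 ± 0.07, SE, 95% interval 0.48 to 0.79, adjusted p = 0.000647), and the call held in all 19 alternatives.

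Nfkbib (chr7:28758251-28766644, minus strand) had counts of 1804, 1604 and 1687 in Nae1T-KO and 1358, 1513 and 1616 for Nae1WT. Nae1WT replicate 3 was above Nae1T-KO replicate 2, so the groups overlapped. The difference was 0.19 ± 0.08 (SE, 95% interval 0.00 to 0.37, adjusted p = 0.167). Nfkbib shares 314 exon bases with Ccer2 on the opposite strand, so reads of the pair could be mixed if strand was not used.

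Map3k14 (chr11:103219764-103267401, minus strand), which encodes NIK, had the largest fold change of the 10 genes. Its counts were 765, 808 and 684 in Nae1T-KO and 465, 442 and 466 in the Nae1WT libraries. Even the lowest Nae1T-KO library, replicate 3, was well above the Nae1WT libraries. Map3k14 rose 1.64-fold (log2 fold change 0.71 ± 0.09, SE, 95% interval 0.51 to 0.91, adjusted p = 0.00117), and it was called in all 19 alternatives. It shares 135 exon bases with 1700028N14Rik on the same strand. Without Nae1T-KO replicate 2 the changes of Map3k14 (0.66, adjusted p = 0.00647), Nfkbid (0.62, adjusted p = 0.00331), Rela (0.39, adjusted p = 0.0214) and Nfkbia (-0.40, adjusted p = 0.0197) remained called.

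The promoters are shown because several NF-kB and IkB genes are themselves known targets of NF-kB, and both the genes that fell and the one IkB gene that rose can be compared in the same window. RefSeq windows of 250 bases before to 50 after each start (GRCm38.p6) matched 8 of the 10 genes by symbol, with none for Nfkb1 and Relb. They were searched on both strands for the 10-base kappa-B consensus, and overlapping matches were counted as 1 place. At least 1 match was found in a window of 5 of the 8 genes, Nfkb2, Rel, Nfkbia, Nfkbie and Nfkbid, and none in those of Rela, Nfkbib and Map3k14. Of the 12504 genes of the deposited table with a window, 11.98% had a match, as did 8.46% of all 32851 windows of the same length. The windows below run 5′ to 3′ along the gene's own strand, with the matches in capitals. They are Nfkbia at chr12:55492598-55492897 (minus strand), Nfkbie at chr17:45555450-45555749 (plus), Nfkbid at chr7:30422156-30422455 (plus) and Nfkb2 at chr19:46304487-46304786 (plus).
Nfkbia: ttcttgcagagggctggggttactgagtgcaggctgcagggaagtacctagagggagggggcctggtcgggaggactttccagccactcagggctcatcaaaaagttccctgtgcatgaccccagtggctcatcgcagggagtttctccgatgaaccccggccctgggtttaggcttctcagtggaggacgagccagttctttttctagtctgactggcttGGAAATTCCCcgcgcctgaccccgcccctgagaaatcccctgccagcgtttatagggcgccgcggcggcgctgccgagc
Nfkbie: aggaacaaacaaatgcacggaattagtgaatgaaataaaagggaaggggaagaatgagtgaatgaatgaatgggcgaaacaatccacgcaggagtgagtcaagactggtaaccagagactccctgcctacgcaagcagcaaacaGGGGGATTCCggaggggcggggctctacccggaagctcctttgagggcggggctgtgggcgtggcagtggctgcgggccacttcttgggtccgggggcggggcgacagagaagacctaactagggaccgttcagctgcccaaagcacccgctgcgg
Nfkbid: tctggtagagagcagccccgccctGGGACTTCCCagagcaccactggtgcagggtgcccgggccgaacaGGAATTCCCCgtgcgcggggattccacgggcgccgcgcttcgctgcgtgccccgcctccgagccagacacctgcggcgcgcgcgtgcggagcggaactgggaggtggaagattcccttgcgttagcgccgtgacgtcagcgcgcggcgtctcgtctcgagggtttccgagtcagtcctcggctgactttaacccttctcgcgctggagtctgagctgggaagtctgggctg
Nfkb2: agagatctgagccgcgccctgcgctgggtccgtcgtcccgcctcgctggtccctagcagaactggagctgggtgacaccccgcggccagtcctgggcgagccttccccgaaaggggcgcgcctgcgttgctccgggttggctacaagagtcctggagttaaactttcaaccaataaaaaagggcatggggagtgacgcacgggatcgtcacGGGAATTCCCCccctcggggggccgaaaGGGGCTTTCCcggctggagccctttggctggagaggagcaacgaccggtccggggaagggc
Counted from the start, with -1 the base just before it, the match begins at -29 in Nfkbia and at -106 in Nfkbie. Nfkbid has matches at -226 and -181 in 1 of its 3 windows, and all 3 windows of Nfkb2 hold a match, the one printed at -39 and -11. The windows of Nfkb2 that are not printed overlap each other and share a match. Genes with a match thus include ones that rose, fell and did not pass. A match describes these letters and is no measurement of binding.

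Per kilobase of merged coding-transcript exons, the levels of the genes can be compared with each other. In Nae1WT the order of mean normalized counts per kilobase was Nfkb1 at 3136, Nfkbia at 1456, Nfkb2 at 1077, Nfkbib at 703, Rel at 596, Nfkbid at 566, Rela at 425, Relb at 378, Nfkbie at 168 and Map3k14 at 108. The 3 libraries of no gene overlapped those of its neighbour in this order, but Rel and Nfkbid change places when the longest transcript sets the length. In Nae1T-KO, Nfkb1 (3819) and Nfkbia (1081) were again the first and the next, and Nfkbid (881) stood above Nfkbib (799) and Rel (739.7). There the libraries overlapped between Nfkbia and Nfkb2, between Nfkbid and Nfkbib and between Nfkbib and Rel, so these neighbours are not separated. Map3k14 (177) ranked above Nfkbie (126) in Nae1T-KO, the reverse of Nae1WT.

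Within the IkB genes, Nfkbia had a smaller and Nfkbid a larger share of the transcripts in Nae1T-KO. Of the summed normalized counts per kilobase of the 4 IkB genes, Nfkbia made up 38.4%, 36.8% and 37.2% in Nae1T-KO, and between 49.5% and 51.3% in the Nae1WT libraries. Nfkbid made up 28.1%, 31.9% and 31.7% in Nae1T-KO against 20.8%, 18.9% and 19.0% in the Nae1WT libraries. For both genes the libraries of the groups were clearly apart. Nfkbib had 27.7% ± 1.25 (SD, n = 3) in Nae1T-KO and 24.3% ± 1.35 in Nae1WT, and Nfkbie 4.36% ± 0.35 and 5.83% ± 0.59. Among the subunits, Nfkb1 made up 58.7% ± 1.63 in Nae1T-KO and 55.8% ± 1.56 in Nae1WT, with overlapping libraries. Nfkb2 had a share of 15.4% ± 0.20 in Nae1T-KO and 19.2% ± 0.89 in Nae1WT, and Rela 8.92% ± 0.94 and 7.57% ± 0.21. Shares within a family depend on each other, and no test was run on them.

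**Figure D3:**
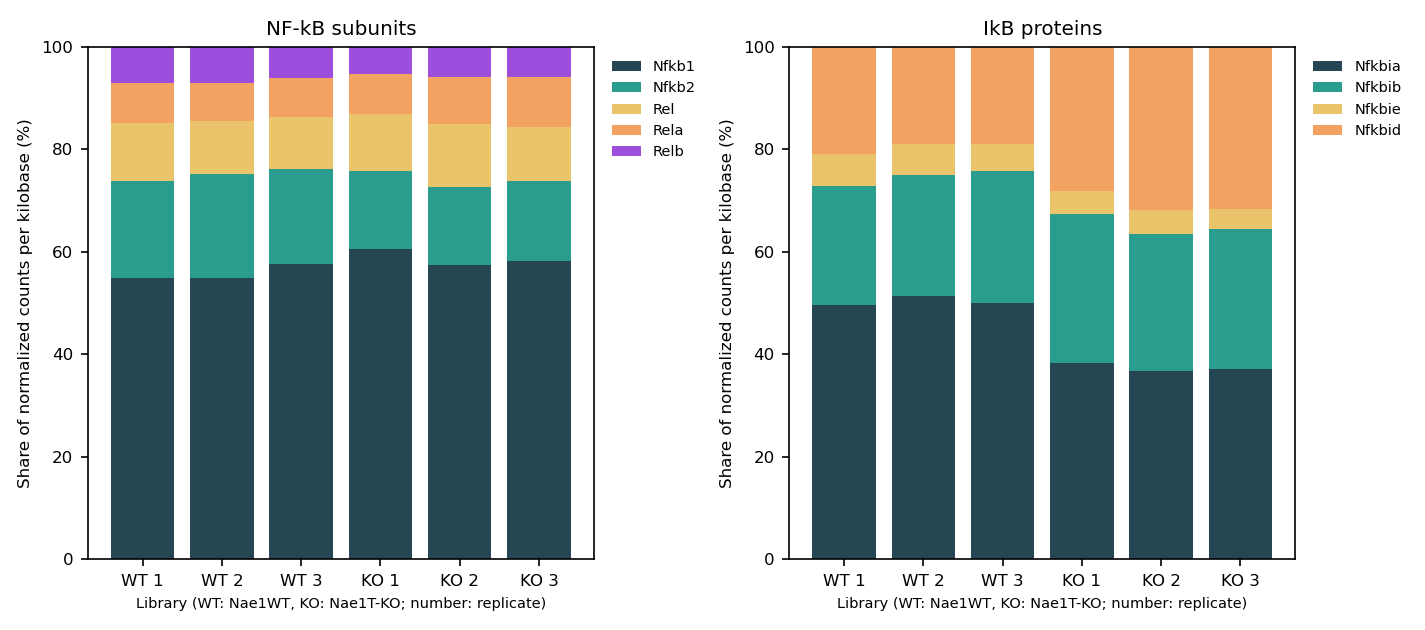
Share of the summed normalized counts per kilobase (vertical axis, percent) taken by each of the 5 subunit genes (left) and the 4 IkB genes (right) in each library; WT is Nae1WT, KO is Nae1T-KO and the number is the replicate. The Nfkbia share lies between 36.8% and 38.4% in the Nae1T-KO libraries and between 49.5% and 51.3% in the Nae1WT libraries.

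Ratios within a library, which do not depend on its scaling, show the same separation. Normalized counts of Rela over those of Nfkbia were 0.816, 1.02 and 0.933 in Nae1T-KO and 0.545, 0.461 and 0.507 for Nae1WT. Nfkbid over Nfkbia came to 1.03, 1.22 and 1.21 in Nae1T-KO and to 0.595, 0.522 and 0.538 in the Nae1WT libraries. Both ratios were higher in every Nae1T-KO library, with no overlap. This follows from genes that moved in opposite directions without overlap, so only the sizes of these ratios add to the comparison. Between the arms, Nfkb1 over Nfkb2 was 3.89, 3.65 and 3.65 in Nae1T-KO and 2.84, 2.66 and 3.04 for Nae1WT. Rela over Relb was 1.87, 1.87 and 2.06 against 1.36, 1.29 and 1.49. The groups did not overlap in these ratios either. Nfkb1 and Rela each separated the groups on their own, so these ratios in part repeat that separation. They were not tested.

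Each group held libraries of both sexes, and the 4 pairs of libraries of the same sex use Nae1T-KO replicate 3 and Nae1WT replicate 3 in 2 pairs each. Rela differed by 0.29 to 0.51 (log2) in these pairs, Nfkbid by 0.55 to 0.70, Map3k14 by 0.55 to 0.79 and Nfkb1 by 0.19 to 0.27. Nfkbia differed by -0.51 to -0.32 and Nfkbie by -0.66 to -0.21. The signs follow from groups that do not overlap, so only the sizes add to the comparison. Rel ranged from 0.03 to 0.50, the widest range among the genes without overlap.

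The upstream and downstream genes of the pathway were examined as 9 lists with 98 distinct tested genes, of which 12 were higher and 8 lower (over all tested genes, 6.53% and 6.18%), with a median log2 fold change of 0.01. Without Nae1WT replicate 1, 2 or 3 the higher genes numbered 6, 7 and 6 and the lower genes 3 each time, and without Nae1T-KO replicate 2 they numbered 8 and 5. The median absolute change over all tested genes was 0.19. The IKK and TAK1 kinases phosphorylate IkB or activate the kinases that do. Of the 9 genes listed for these kinases and their regulatory partners, 1 fell, where 6.18% of all tested genes did, and 8 did not pass (-0.20 to 0.14). The one that fell was Chuk, which encodes IKK-alpha, the kinase downstream of NIK, at 1779.5 ± 70.2 normalized counts (SD, n = 3) in Nae1T-KO and 2084 ± 47.9 in Nae1WT (log2 fold change -0.23, adjusted p = 0.0452). Its call held in 8 of 19 alternatives and was lost without any 1 library. Of the 8 adaptors from the T cell receptor to IKK, only Pdpk1 was called, at 1652 ± 240.0 against 2199 ± 65.6 (-0.42, adjusted p = 0.0220), and the other 7 differed by -0.19 to 0.12. The Pdpk1 call ended without any Nae1WT replicate and under total-count scaling (-0.38, adjusted p = 0.0518). Bcl3 and Nfkbiz, the remaining nuclear IkB genes, differed by -0.01 and 0.20, and neither passed with limma, at an unadjusted p under 0.05, or with edgeR, DESeq2 or limma-voom.

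Of the 7 genes that control the stability of NIK protein, Birc3, which encodes a cIAP ubiquitin ligase, fell from 2058 ± 41.0 to 1713 ± 64.8 normalized counts (SD, n = 3, -0.27, adjusted p = 0.0248). The other 6 lay between -0.18 and 0.31 and were not called, where 6.18% of all tested genes were called lower. Birc3 is also known as an NF-kB target. It was not called under total-count scaling (-0.22, adjusted p = 0.0625), and leaving out Nae1T-KO replicate 2 or any Nae1WT replicate also ended the call.

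A further list of 14 genes held the SCF ligase, its E2 enzymes, NEDD8 with its E2 enzyme, and the KPC ubiquitin ligase. Of these genes, 2 rose and 12 lay between -0.19 and 0.27 without passing. Over all tested genes 6.53% were called higher and 6.18% lower. Ube2r2, which encodes an E2 enzyme that works with cullin ligases, rose from 871 ± 49.3 to 1196 ± 59.2 (0.46, adjusted p = 0.00476). Ube2m, which encodes the E2 enzyme for NEDD8, rose from 3122 ± 195 to 3722 ± 214 (0.25, adjusted p = 0.0481), a call that held in 8 of 19 alternatives. In the linear ubiquitin and deubiquitinase list, 2 of 11 rose and 1 fell, beside the same shares over all tested genes. Rnf31, which encodes the catalytic subunit of the linear ubiquitin ligase, rose by 0.30 (adjusted p = 0.0371), and Tnip2, which encodes an A20-binding protein, by 0.34 (adjusted p = 0.0344). Tnfaip3, which encodes A20, a feedback inhibitor of NF-kB signalling, fell from 1459 ± 57.2 to 1093.5 ± 163 (-0.43, adjusted p = 0.0232). Rnf31 and Tnip2 lost their call with sex as a covariate, and Tnfaip3 under total-count scaling (-0.38, adjusted p = 0.0553). Leaving out any Nae1WT replicate ended the calls of all 3, as it did for Ube2m. So did leaving out Nae1T-KO replicate 1 for Tnfaip3, Tnip2 and Ube2m, replicate 2 for Rnf31 and Tnip2, and replicate 3 for Tnip2 and Ube2m.

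Of the 10 TNF family ligands, 1 rose and 2 fell, where 6.53% of all tested genes were called higher and 6.18% lower. Lta and Ltb, which encode the lymphotoxins, fell from 3126.5 ± 147 to 1755 ± 277 and from 2156.5 ± 161 to 1182 ± 303 normalized counts (SD, n = 3). The log2 fold changes were -0.84 for Lta (adjusted p = 0.00141) and -0.90 for Ltb (adjusted p = 0.0184). Tnfsf8, which encodes the ligand of CD30, rose from 2223 ± 130 to 4296 ± 314 (0.95, adjusted p = 0.000121). The other 7 ligands lay between -0.75 and 0.72. Lta and Tnfsf8 were called in all 19 alternatives, whereas Ltb was not called without Nae1T-KO replicate 2 or without Nae1WT replicate 1 or 2. Of the 8 receptors tested of 11 listed, Tnfrsf1a rose from 291 ± 20.9 to 396 ± 19.4 (0.44, adjusted p = 0.0185) and Tnfrsf4, which encodes the costimulatory receptor OX40, from 3035 ± 82.1 to 3952 ± 551 (0.37, adjusted p = 0.0261). The other 6 differed by -0.41 to -0.01, and both calls ended without Nae1WT replicate 1 or 3. Tnfrsf1a also lost its call without Nae1T-KO replicate 2, and Tnfrsf4 without Nae1T-KO replicate 1 or Nae1WT replicate 2.

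Textbook NF-kB target genes did not move in 1 direction. Of 32 tested, 5 were higher, 4 lower and 23 not called, beside 6.53% higher and 6.18% lower over all tested genes, with a median log2 fold change of 0.12. The lower genes numbered 2, 2 and 1 without Nae1WT replicate 1, 2 and 3. Cxcl10, a chemokine gene, had 273, 352 and 333 normalized counts in Nae1T-KO and 34.4, 32.4 and 51.8 in the Nae1WT libraries (3.01, adjusted p = 3.58e-05). Il2, the T cell growth factor gene, had 1349.9, 2022 and 2499 against 616, 734 and 587 (1.56, adjusted p = 0.00715). Both were far above the Nae1WT libraries in each Nae1T-KO library. Cd69, an early activation marker, rose by 0.46 (adjusted p = 0.0125) and Ier3 by 0.65 (adjusted p = 0.0471). The remaining gene called higher, Il6, has a mean under 5 CPM, outside the rule for naming genes, and was named after its values were seen. It had 69.3, 24.7 and 22.2 normalized counts in Nae1T-KO and 4.91, 0 and 3.81 for Nae1WT. Fas, which encodes a death receptor, fell from 632 ± 28.5 to 429 ± 6.57 (SD, n = 3, -0.56, adjusted p = 0.00252). Ccnd2, likewise named after its values were seen, fell by 0.37 (adjusted p = 0.0158), and Tnfaip3 and Birc3 complete the 4 that fell. Ier3 lost its call without Nae1T-KO replicate 1 or 2 or Nae1WT replicate 1 or 2, and Cd69 and Ccnd2 without Nae1WT replicate 3. Summed myeloid and CD4 T cell markers were also higher in all Nae1T-KO libraries than in any Nae1WT library. No CD4 T cell marker was called. Il13, itself a cytokine gene, had the largest count among them in each Nae1T-KO library (669, 352 and 245, against 83.5, 160 and 203 for Nae1WT). Counts of Cd4 overlapped (20.1, 118 and 72.7 against 119, 20.9 and 42.6). The part of the myeloid and CD4 T cell markers in the levels of cytokine and chemokine genes was not tested.

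**Figure D4:**
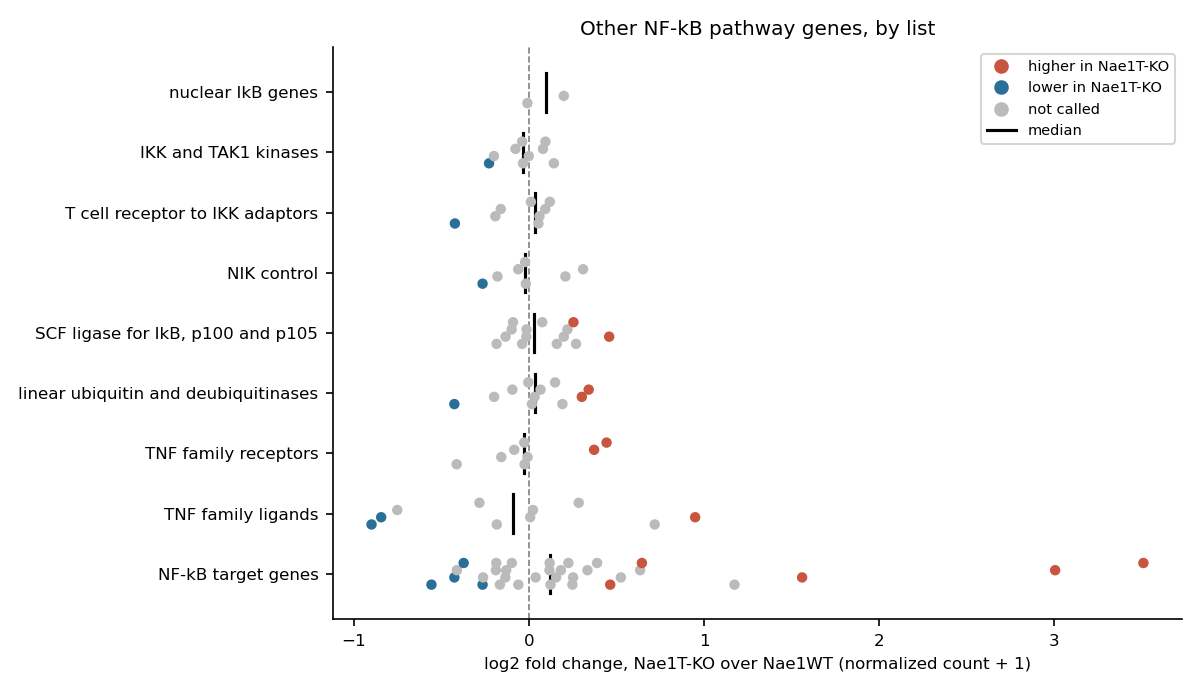
Log2 fold change of normalized count + 1, Nae1T-KO over Nae1WT (horizontal axis), of each tested gene in the 9 pathway lists (vertical axis; some genes are in more than 1 list), coloured by call, with the list median (line). The list medians lie between -0.09 and 0.12, and the widest spread is among the target genes and the TNF family ligands.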

How the data were processed

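Poly-A RNA of 6 libraries was sequenced. Per the submitters' processing notes, bcl2fastq, HISAT2, DESeq2 1.42.0 and the build mm10 were used. Which counter and gene models were used, and how strand and multiply mapping reads were handled, is not stated in the sources used here. The deposited table holds normalized counts, a signal without a stated unit. Values within a library were multiples of 1 step (100% of them whole within 0.001 read), equal to the inverse of DESeq2's size factor, so whole reads were recovered; for Nae1T-KO replicate 3 the step, 1.01, is close to 1, which makes recovery less certain.

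Genes with a normalized count of at least 10 in at least 3 libraries entered a limma 3.58.1 fit (trend and robust, R 4.3.3) of log2(normalized count + 1), with group alone, two-sided, with Benjamini-Hochberg adjustment over all tested genes and a threshold of 0.05. Fold changes are on this scale, which understates those of low genes. All 10 genes are named, with Nae1 and, from each list, up to 3 called genes (5 for targets), taken by size of change among those averaging 5 CPM or more. The members and lists were chosen with earlier results of these data known. The fit was tested on simulated data. Tnfrsf11a and Vcam1 were not analysed here, and a search of the proteins was not run. Exon lengths and overlaps came from GENCODE. Alternatives were other scalings, filters and pseudocounts, leaving out each library, replicate blocks, a sex covariate, and 3 count tests on recovered reads (DESeq2 1.42.0, edgeR 4.0.16, limma-voom). Intervals cover the spread between libraries only.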

Additional observations from a re-analysis of the deposited data

How the results depend on the processing

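Of 190 values of the 10 genes under alternatives, 168 kept direction and side of the threshold, 19 lost the call, 2 gained it and 1 changed sign (Relb, 0.0068 under total-count scaling, adjusted p = 0.971). Leaving out 1 library gave 0.2398 to 0.3469 for Nfkb1, 0.2036 to 0.4111 for Rel and -0.4896 to -0.3565 for Nfkbie. With sex as a covariate Nfkb1 was at 0.2268 and Nfkbie at -0.4097 (both not called), under total-count scaling Nfkbie was at -0.3694, and DESeq2 called Rel (0.3122). The count of genes that rose among the 10 was 3 to 5 without 1 library, and of those that fell 1 to 2, 1 under total-count scaling and 1 with sex. Over all genes, leaving out 1 library left 467 to 940 higher and 377 to 850 lower, fewest without Nae1WT replicate 2; 514 and 520 were called without Nae1T-KO replicate 2 and 559 and 395 without Nae1WT replicate 3. The distinct pathway genes called came to 6 to 14 higher and 3 to 9 lower without 1 library, with 4 lower under total-count scaling. Uba3, which did not pass (0.02), ranged from -0.0150 to 0.0933 without 1 library, and was below 0 without replicate 1 (-0.0108) or replicate 3 (-0.0150) of Nae1T-KO and without the first of Nae1WT (-0.0059). For the 18 named pathway genes, Nae1 and Uba3, 292 of 380 values kept their call, 85 lost it and 3 changed sign. The causes were not tested.

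Libraries with the same title number did not deviate together (r -0.13, -0.18 and -0.27), nor did those with the same library number (-0.13 and -0.27). No library correlated best with its own number. Each of these pairs joined a female and a male library, so the check cannot tell whether the numbers pair the samples. A replicate block by title number left 513 genes higher and 455 lower, 1 of the 10 genes lower, 6 and 4 pathway genes, Nfkb1 at 0.2828 (adjusted p = 0.127) and Nfkbie at -0.4165 (0.0604). A replicate block by library number, on 4 libraries, left 157 and 96 genes, 2 of the 10 genes higher and 0 lower, 2 and 1 pathway genes, and no call for Nfkb1 (0.2321, adjusted p = 0.414), Rela (0.3988, 0.104), Nfkbia (-0.4520, 0.0655) and Nfkbie (-0.4334, 0.197); it uses fewer samples.

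The least abundant of the 10 genes, Nfkbie, had 279 to 485 reads a library. How much of the spread between libraries is counting error was not tested.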

Other observations

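For each of the 6 called genes, the tested genes whose log2 level followed it most closely over the 6 libraries were found by Pearson's r, as a description without a test. Nfkbid was most like Slc25a22 (r = 0.997) and Tacc2 (r = 0.995), and Map3k14 most like Egfr (0.998), the receptor of epidermal growth factor, and Pelp1 (0.9975). Rela was closest to Phc2 (0.997) and Man2a2 (0.996), and Nfkb1 to Ncs1 (0.996), a calcium sensor gene, and Psmd3 (0.995), which encodes a proteasome subunit. Nfkbia was closest to Arl1 (0.998) and Tubd1 (0.997), and Nfkbie to Pigk (0.998) and Tfeb (0.996), which encodes a transcription factor of lysosome genes. With 6 points in 2 groups, any gene that differs between the groups in the same direction shares most of such a pattern.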
